A study of Mus musculus with 16 samples.

Results

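Glutamate uptake and the glutamine cycle were followed through 9 of the 24060 genes measured: the carriers Slc1a1, Slc1a2, Slc1a3 and Slc1a4, the enzymes Glul and Glud1, and the glutamine carriers Slc38a1, Slc38a2 and Slc38a3. They were chosen by symbol from known function, with earlier results of these data known, and each was found once in every library. The libraries came from the somatosensory cortex of C57BL/6J mice carrying Aldh1l1CreERT2-RiboTag, in which tamoxifen puts an HA tag on the ribosomes of cells that use the astrocyte promoter Aldh1l1. Every group carried the same alleles and had received tamoxifen, at 2 months of age by the labels, and all mice were 3 months old when used. Stress mice swam for 20 minutes and rested for 90 minutes in the home cage, and naïve mice stayed in the home cage. From each mouse, RNA bound to tagged ribosomes (IP) and RNA of the whole lysate (INPUT) were sequenced, giving 4 IP and 4 INPUT libraries from naïve mice and as many from stress mice. The labels give neither which IP and INPUT libraries share a mouse nor the sex of each mouse, so the libraries were treated as independent. By the study's methods both males and females were used, and their split between the groups is not given. The methods also give a shorter interval after tamoxifen than the labels do.

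Glutamate released at synapses is cleared by sodium-coupled carriers, mainly on astrocytes. There, glutamine synthetase, the product of Glul, joins it to ammonia to form glutamine, or glutamate dehydrogenase, the product of Glud1, feeds its carbon into the mitochondrial citric acid cycle. Glutamine leaves astrocytes through system N carriers such as SNAT3 (Slc38a3). It enters neurons in part through system A carriers such as SNAT1 (Slc38a1) and SNAT2 (Slc38a2), where it serves to form glutamate again.

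Promoter sequence before the annotated start is printed for 3 genes: the astrocytic carrier Slc1a3, the enzyme Glul and the neuronal carrier Slc1a1. No glutamine carrier is among them, though Slc38a2 had an entry. The sequences are from RefSeq on build GRCm38.p6, whose table held 7 of the 9 genes, and run 5′ to 3′ on the strand of the gene. Each ends before both the RefSeq start and the start of the gene in GENCODE vM21. Capitals mark exact matches, on either strand, to 6 short motifs. These were the half-site of the cAMP response element, written TGACG, the half-site bound by the glucocorticoid receptor, written AGAACA, the core shared by SOX factor sites, written ACAAT, the CCAAT box, the GC box, written GGGCGG, and the TATA box, here written TATAAA. No matches to different motifs overlapped in these stretches.
Slc1a3, chr15:8710808-8711057, minus strand: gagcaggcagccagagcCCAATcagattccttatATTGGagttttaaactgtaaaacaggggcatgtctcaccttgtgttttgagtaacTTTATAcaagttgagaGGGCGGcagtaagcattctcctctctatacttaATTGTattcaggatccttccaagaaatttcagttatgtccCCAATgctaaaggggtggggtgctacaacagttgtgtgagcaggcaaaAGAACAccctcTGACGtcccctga
Glul, chr1:153899679-153899928, plus strand: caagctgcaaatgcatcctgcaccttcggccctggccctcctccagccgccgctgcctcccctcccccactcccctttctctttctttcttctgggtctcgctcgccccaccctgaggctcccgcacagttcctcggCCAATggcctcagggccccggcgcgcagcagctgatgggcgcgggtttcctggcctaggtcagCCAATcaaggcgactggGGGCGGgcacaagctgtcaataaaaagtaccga
Slc1a1, chr19:28834885-28835048, plus strand: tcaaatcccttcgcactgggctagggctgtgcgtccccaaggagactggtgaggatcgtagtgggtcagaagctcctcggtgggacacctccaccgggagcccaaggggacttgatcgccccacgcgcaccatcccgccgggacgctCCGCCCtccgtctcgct
The Slc1a3 stretch held all 6 motifs, with 3 matches to the CCAAT box and 1 to each of the others. The Glul stretch held 2 matches to the CCAAT box and 1 to the GC box, and the Slc1a1 stretch, printed to 164 bases because the GENCODE gene starts there, held 1 match, to the GC box, as did its whole window of 250 bases. In windows of 250 bases before all 32851 starts of the same table, the cAMP half-site was found in 17.8%, the glucocorticoid half-site in 16.1%, the SOX core in 27.7%, the CCAAT box in 33.8%, the GC box in 32.7% and the TATA box in 12.4%. Among the 7 genes with an entry, the glucocorticoid half-site was found in Slc1a3 alone and the cAMP half-site in Slc1a3, Slc1a4 and Slc38a2. The entry for Slc1a2 lies at a start inside the gene and held none of the 6. These matches are a description of letters and do not show binding.

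The libraries held 16392876 to 25814364 reads on genes, and levels are given as CPM, a gene's reads for every 1000000 reads on genes. In naïve mice IP exceeded INPUT for all 10 astrocyte markers, by 2.87 to 4.50 on the log2 scale, and fell below it for all 10 neuron markers, with log2 ratios of −4.74 to −3.07. Neuronal RNA was still present in IP, with the neuron markers summing to 725 to 901 CPM in naïve IP, against 12441 to 13303 in naïve INPUT. In naïve mice 6 of 7 oligodendrocyte markers and 2 of 2 oligodendrocyte precursor markers were also lower in IP. So were 7 of 7 microglial markers and 5 of 6 endothelial and mural markers. Cnp (oligodendrocyte, log2 ratio 0.37) and Pdgfrb (endothelial and mural, 2.37) were higher. Of 3 genes tested for choroid plexus, meninges and blood, 2 were lower. Ttr, also on that list, had 30.5 ± 55.4 CPM (SD) in naïve IP. Of all genes tested in naïve mice, 23.7% were higher in IP and 64.0% lower, and the median log2 ratio was −0.64. In stress mice 23.6% were higher and 62.5% lower, with a median of −0.63. In bulk RNA, fewer cells of a type and less RNA per cell cannot be told apart.

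Of the 9 genes, 6 were higher in IP than in INPUT and 3 were lower, in naïve and in stress mice alike (limma on log2(CPM + 0.1), adjusted p under 0.05 over all genes tested). The genes higher in IP were the astrocytic uptake carriers Slc1a2 and Slc1a3, the exchanger Slc1a4, both enzymes and the glutamine exporter Slc38a3. The genes lower in IP were the neuronal glutamate carrier Slc1a1 and the system A carriers Slc38a1 and Slc38a2. The values below are given in the order of the library numbers, 2, 8, 11 and 13 for naïve IP, 4, 5, 6 and 15 for stress IP, 3, 7, 14 and 16 for naïve INPUT, and 1, 9, 10 and 12 for stress INPUT.

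**Figure D1:**
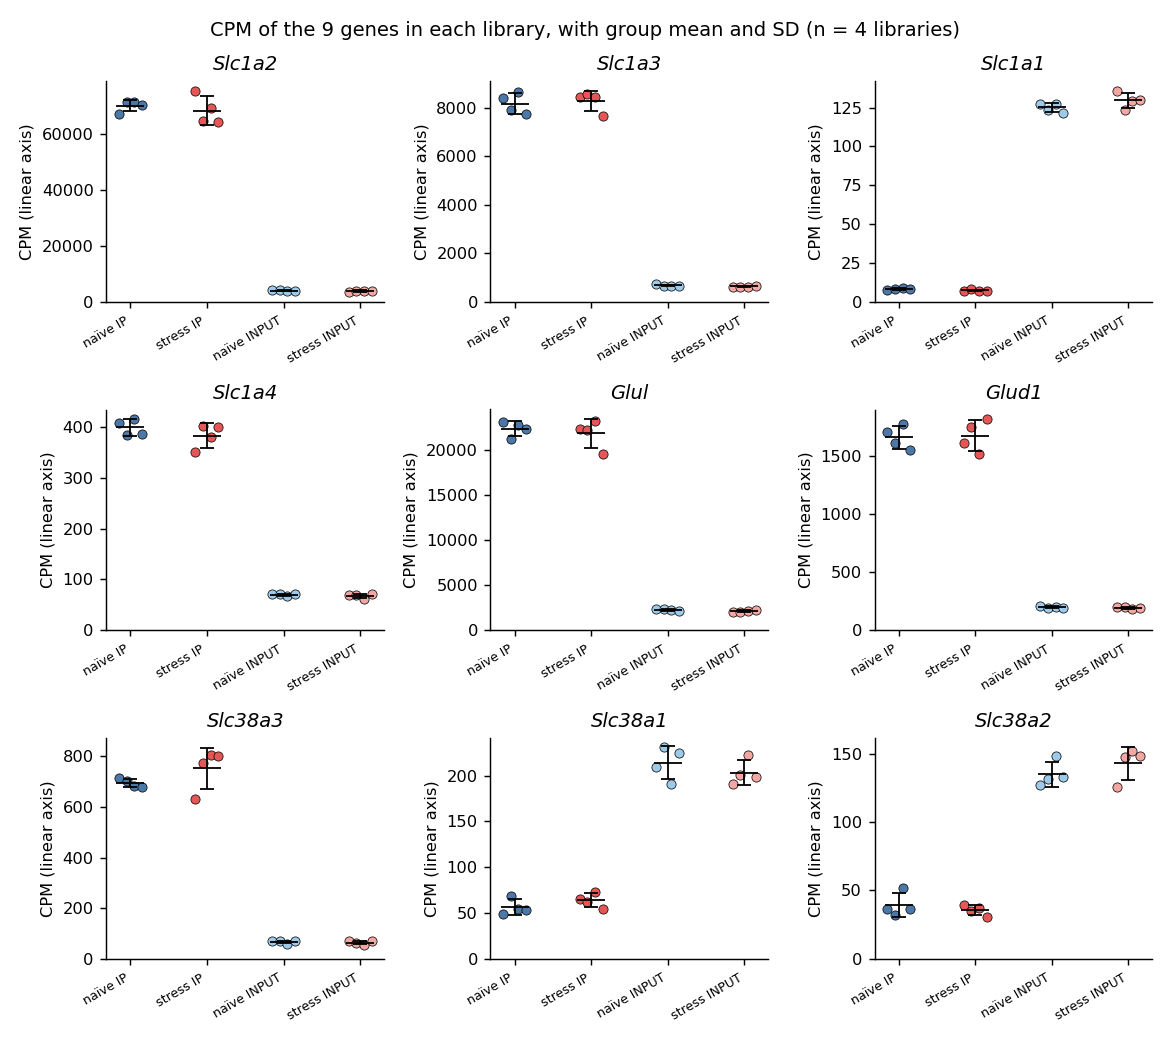
Level of each of the 9 genes in CPM (linear axis from 0) in the 16 libraries; points are libraries, the bar and whiskers the mean and SD of 4. In the panels of Slc1a2, Slc1a3, Slc1a4, Glul, Glud1 and Slc38a3 the IP libraries stand above INPUT, in those of Slc1a1, Slc38a1 and Slc38a2 below, and naïve and stress libraries overlap in every panel.

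Slc1a2 encodes GLT-1, the main glutamate carrier of forebrain astrocytes, and lies at chr2:102658659-102790784 on the plus strand (GENCODE vM21, mm10, as for the positions below). Its CPM values were 67457, 71707, 71666 and 70642 in the naïve IP libraries and 75534, 64672, 69323 and 64625 in stress IP. In INPUT they were 4115, 4173, 3865 and 3907 in naïve and 3373, 3956, 3974 and 3813 in stress mice. The stress IP values lay on both sides of the naïve ones, with 1 library above all 4 naïve libraries and 2 below. Slc1a2 alone took 7.04% ± 0.200 (SD, n = 4) of all reads on genes in naïve IP and 6.85% ± 0.516 in stress IP, against 0.402% ± 0.0152 and 0.378% ± 0.0280 in INPUT. Its log2 ratio of IP over INPUT was 4.13 (SE 0.0683, adjusted p = 9.55e-15) in naïve mice, a 17.5-fold difference, and 4.18 in stress mice. Without the filter on low genes limma gave the same ratios but adjusted p of 0.37 in naïve and 0.44 in stress mice, and with quantile normalization the ratios were 1.45 and 1.51 with the calls kept.

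Slc1a3 encodes GLAST, the other glutamate carrier of astrocytes (chr15:8634124-8710764, minus strand), and its promoter is the first of the 3 printed above. It reached 8386, 7899, 8644 and 7721 CPM in naïve IP and 8424, 8573, 8432 and 7657 CPM in stress IP. In INPUT its values were 725, 649, 661 and 646 CPM in naïve and 622, 615, 618 and 667 CPM in stress mice. The log2 ratio of IP over INPUT was 3.61 (SE 0.0606, adjusted p = 1.06e-14) in naïve and 3.71 in stress mice, below that of Slc1a2. Read within each library, Slc1a2 had 8.64 ± 0.556 times the CPM of Slc1a3 in naïve IP and 6.00 ± 0.324 times in naïve INPUT, and the 4 IP and 4 INPUT ratios did not overlap. In stress mice the ratio was 8.29 ± 0.589 in IP and 6.00 ± 0.509 in INPUT, again without overlap. These ratios between genes are of CPM and carry the difference in transcript length, which cancels between fractions.

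Slc1a1 encodes EAAC1, the glutamate carrier of neurons (chr19:28835049-28913960, plus strand). It had 127, 124, 128 and 122 CPM in naïve INPUT and 136, 124, 129 and 130.1 CPM in stress INPUT. In IP it had 7.39, 7.88, 8.54 and 8.33 CPM in naïve and 7.18, 8.04, 6.75 and 7.15 CPM in stress mice, which is 148 to 218 reads a library. The log2 ratio of IP over INPUT was −3.95 (SE 0.0677, adjusted p = 1.16e-14) in naïve and −4.14 in stress mice. Both values lie within the range of the 10 neuron markers. An exon of 4430402I18Rik, on the opposite strand, overlaps Slc1a1 and reached at most 4.10 CPM in any library, and whether the counting used strand is not given in the sources used here.

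Slc1a4 encodes ASCT1, an exchanger of small neutral amino acids such as serine and alanine that does not carry glutamate (chr11:20302180-20332713, minus strand). Its level was 408, 385, 416 and 386 CPM in naïve IP and 349.8, 403, 379.8 and 399.6 CPM in stress IP. INPUT held 71.2, 71.0, 67.0 and 71.0 CPM in naïve and 68.9, 69.7, 62.1 and 70.4 CPM in stress mice. At 2.51 (adjusted p = 3.25e-14) in naïve and 2.50 in stress mice, its log2 ratio was the smallest of the 6 genes that were higher in IP, and lay below the lowest astrocyte marker.

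Glul, the gene of glutamine synthetase (chr1:153899944-153909723, plus strand), gave 23074, 21239, 22836 and 22334 CPM in naïve IP, and in stress IP it gave 22370.2, 22184, 23247 and 19557 CPM. Its INPUT values were 2339, 2357, 2266 and 2123 CPM in naïve and 2040.2, 2024, 2123 and 2238 CPM in stress mice. The log2 ratio of IP over INPUT was 3.30 (SE 0.0632, adjusted p = 2.46e-14) in naïve and 3.37 in stress mice, a difference of 9.85-fold and 10.4-fold. With quantile normalization these ratios were 1.43 and 1.56, and the calls were kept. Stress IP library 15 was the lowest of the 8 IP libraries for Glul and also for Slc1a2, Slc1a3 and Slc38a2.

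Glud1, the gene of mitochondrial glutamate dehydrogenase (chr14:34310727-34345265, plus strand), had 1714, 1615, 1778 and 1559 CPM in naïve IP and 1613, 1755, 1525 and 1823 CPM in stress IP. In INPUT it had 208, 192, 202 and 195 CPM in naïve and 199, 199.6, 183 and 188 CPM in stress mice. Its log2 ratio was 3.07 (adjusted p = 1.56e-14) in naïve and 3.12 in stress mice. Read within each library, Glul had 13.4 ± 0.641 times the CPM of Glud1 in naïve IP and 11.4 ± 0.604 times in naïve INPUT, without overlap. In stress mice the ratios of 13.1 ± 1.92 in IP and 11.0 ± 0.910 in INPUT overlapped. The annotation also lists a processed pseudogene of this family, Glud-ps, and reads that fit both places were not counted, since the authors kept uniquely mapped reads.

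Slc38a3, the gene of the system N carrier SNAT3 (chr9:107650634-107669530, minus strand), had 715, 703, 685 and 678 CPM in naïve IP and 633, 774, 804 and 801 CPM in stress IP. In INPUT it had 67.9, 69.1, 59.6 and 68.1 CPM in naïve and 68.3, 61.6, 54.1 and 69.6 CPM in stress mice. In stress IP, 3 libraries lay above and 1 below all 4 naïve values. The log2 ratio of IP over INPUT was 3.39 (SE 0.0562, adjusted p = 9.78e-15) in naïve and 3.57 in stress mice.

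The system A carriers went the other way. Slc38a1 (SNAT1, chr15:96571418-96642913, minus strand) had 209, 231, 191 and 224 CPM in naïve INPUT and 191, 201, 222 and 198 CPM in stress INPUT. In IP it had 48.8, 68.8, 54.5 and 53.1 CPM in naïve and 65.2, 62.3, 72.8 and 54.4 CPM in stress mice. Slc38a2 (SNAT2, chr15:96687392-96699730, minus strand), its neighbour on the same strand, had 127, 132, 149 and 133 CPM in naïve INPUT and 125, 148, 152 and 148 CPM in stress INPUT. Its IP values were 36.4, 31.8, 51.9 and 36.1 CPM in naïve and 39.4, 34.8, 37.4 and 30.7 CPM in stress mice, so naïve IP library 11 stood above the other 7 IP libraries. Of Slc38a1 the log2 ratio of IP over INPUT was −1.93 (adjusted p = 2.25e-10) in naïve and −1.68 in stress mice. That of Slc38a2 was −1.81 (adjusted p = 5.17e-09) and −2.01. All 4 values lie between those of the astrocyte and the neuron markers. Slc38a3 had 12.5 ± 1.82 times the CPM of Slc38a1 in naïve IP and 0.310 ± 0.0116 times in naïve INPUT.

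**Figure D2:**
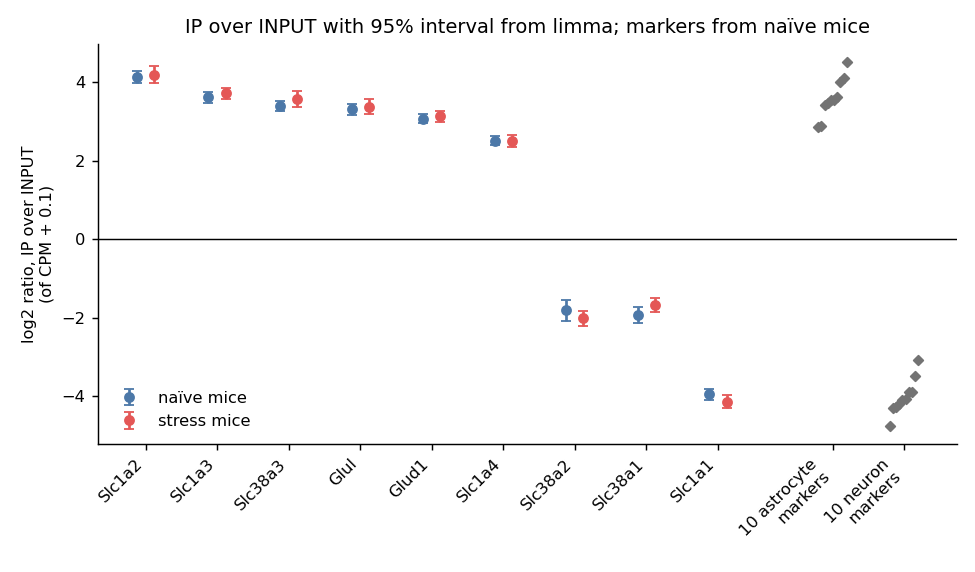
Log2 ratio of IP over INPUT of each gene, on log2(CPM + 0.1), with the 95% interval from limma, in naïve mice (blue) and stress mice (red), 4 libraries a group; grey diamonds are the 10 astrocyte and 10 neuron markers in naïve mice. Slc1a2, Slc1a3, Slc38a3, Glul and Glud1 lie among the astrocyte markers, Slc1a1 lies among the neuron markers, and Slc38a1 and Slc38a2 lie between −2.01 and −1.68.

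In naïve mice the log2 ratios ran, from the highest, Slc1a2, Slc1a3, Slc38a3, Glul, Glud1, Slc1a4, Slc38a2, Slc38a1 and Slc1a1. Judged by the ratio of neighbouring genes within each library, 2 of the 8 steps in this order did not differ between IP and INPUT beyond their spread, those from Slc38a3 to Glul and from Slc38a2 to Slc38a1. In stress mice Slc38a1 stood above Slc38a2, and the steps between Slc1a3, Slc38a3, Glul and Glud1 overlapped. The order of the highest genes holds for scaling to the library total: with quantile normalization Slc38a3 came first at 3.66 in naïve mice and Glul last of the 6 at 1.43. Rescaling the libraries by their median ratio raised all 9 ratios, as it set the median of all genes near 0, to 4.77 for Slc1a2 and −3.31 for Slc1a1 in naïve mice, and kept every direction and call.

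Levels of different genes were compared per length, as CPM per kb of merged GENCODE exons (FPKM). In naïve IP, Glul was highest at 6732 ± 245 FPKM (SD, n = 4), followed by Slc1a2 at 5358 ± 152 FPKM and Slc1a3 at 956 ± 50.0 FPKM. Glud1 had 396 ± 23.4, Slc38a3 132 ± 3.21 and Slc1a4 102 ± 4.10 FPKM. Each of these 6 lay apart from the next. Slc38a2 at 4.42 ± 0.997 and Slc38a1 at 3.27 ± 0.503 FPKM overlapped, and Slc1a1 was lowest at 0.973 ± 0.0616 FPKM. The order in stress IP was the same. In naïve INPUT the order began with Glul at 684 ± 32.0, Slc1a2 at 306 ± 11.6, Slc1a3 at 78.5 ± 4.36 and Glud1 at 47.2 ± 1.73 FPKM, and the other 5 genes lay between 12.4 and 17.8 FPKM. The order of those 5 depends on the exons counted. Slc1a4 led them with all exons and was last with the exons of RefSeq-linked transcripts, where Slc1a1 led at 32.9 FPKM. With those exons the first 4 kept their places in every group, while Slc38a1 and Slc38a2, which overlap, swapped places in stress IP.

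**Figure D3:**
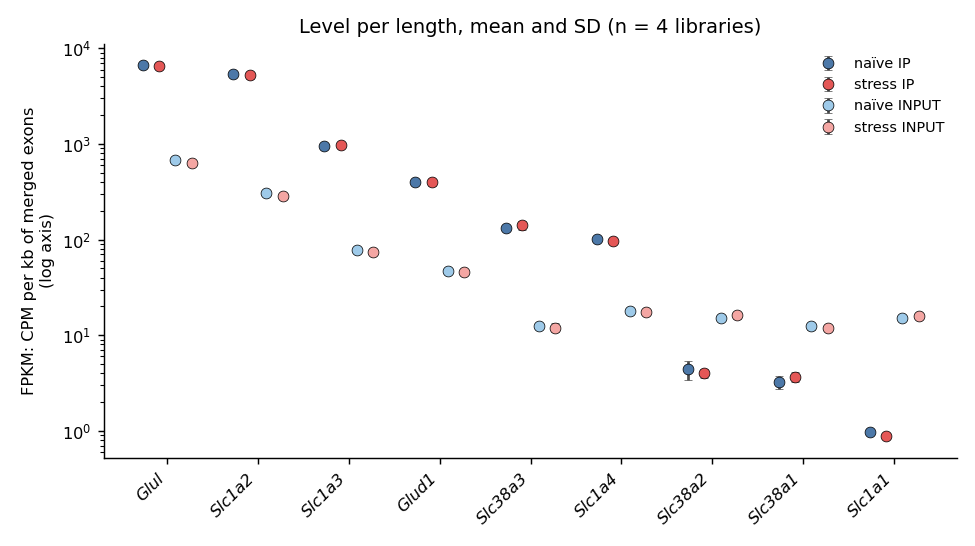
Level per length, in FPKM on a log axis, of the 9 genes in the 4 groups; points are means and whiskers SD of 4 libraries. Glul and Slc1a2 stand highest in every group, and the spread of the genes is wider in IP, from 6732 FPKM for Glul to 0.973 FPKM for Slc1a1 in naïve mice, than in INPUT.

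The 9 genes together took 10.4% ± 0.178 of all reads on genes in naïve IP and 10.2% ± 0.617 in stress IP. In INPUT they took 0.777% ± 0.0266 and 0.732% ± 0.0334. Slc1a2, Slc1a3 and Glul held 97.2% of these reads in naïve IP and 89.6% in naïve INPUT. Ranked by FPKM among the genes with a known length, Slc1a2 ranked 4 in all 8 IP libraries and Glul 2 or 3, while in INPUT Slc1a2 ranked 33 to 62 and Glul 9 to 11.

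Whether acute swim stress changed these genes was asked in each fraction. In IP, 0 of the 9 genes passed the threshold, where 0.440% of the 12501 genes tested did. In INPUT, 0 of 9 passed, where 0.0442% of 13577 did. By limma no member had an unadjusted p under 0.05 in either fraction (0 of 9 in each, where 8.27% of all genes in IP and 5.03% in INPUT did), and limma-voom on the recovered reads called 0 as well. The naïve and stress values of every member overlapped in both fractions, while 5.00% of all genes tested in IP and 2.87% in INPUT had groups that did not overlap. An exact two-sided permutation test of 4 against 4 libraries, which can go no lower than 0.029, gave p between 0.057 and 0.89 over the members and fractions.

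In IP the log2 change of stress against naïve was −0.04 for Slc1a2 (95% interval −0.26 to 0.18, adjusted p = 0.942 by limma), 0.02 for Slc1a3 (−0.14 to 0.17) and −0.04 for Glul (−0.22 to 0.15). Glud1 was at 0.01 (−0.14 to 0.16) and Slc1a4 at −0.06 (−0.19 to 0.07). These 5 of the 6 genes higher in IP lay within 0.06 of 0. The remaining 1, Slc38a3, was at 0.11 (−0.06 to 0.27). The system A carriers were at 0.18 for Slc38a1 (−0.06 to 0.42) and −0.11 for Slc38a2 (−0.41 to 0.18). Without naïve IP library 11 the value of Slc38a2 was 0.03, on the other side of 0, without stress IP library 15 it was −0.05 and without naïve IP library 8 −0.20. Slc38a3 was at 0.19 without stress IP library 4. Slc38a1 was at 0.28 without naïve IP library 8, 0.12 without naïve IP library 2 and 0.11 without stress IP library 6. None of these values passed the test. The widest bounds of the 9 intervals were 0.754-fold for Slc38a2 and 1.34-fold for Slc38a1. These are unadjusted intervals of single genes with 4 libraries a group, and changes inside them were not excluded. They do not give the smallest change that the test adjusted over all genes could call.

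Slc1a1 was at −0.14 in IP (−0.37 to 0.09, adjusted p = 0.781 by limma). Of the 10 neuron markers, 8 also had a log2 change below 0 in IP, as did 51.1% of all genes tested. Tubb3 at 0.27 and Neurod6 at 0.10 went the other way. The median over the 10 markers was −0.24 and none was called. These markers summed to 588 to 809 CPM in stress against 725 to 901 in naïve IP. Their part in the value of Slc1a1 was not tested.

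In INPUT 7 of the 9 genes had a log2 change below 0, as did 51.2% of all genes tested, and none passed the test. The value nearest to the threshold was that of Glul, at −0.11 (−0.23 to 0.01, adjusted p = 0.994 by limma), with an exact permutation p of 0.057. Slc1a2 was at −0.09 (−0.22 to 0.04) and Slc1a3 at −0.09 (−0.20 to 0.03). The other values ran from −0.07 for Slc38a1 to 0.08 for Slc38a2. Over the 9 genes the median absolute log2 change was 0.06 in IP and 0.07 in INPUT, beside 0.09 and 0.07 over all genes tested.

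**Figure D4:**
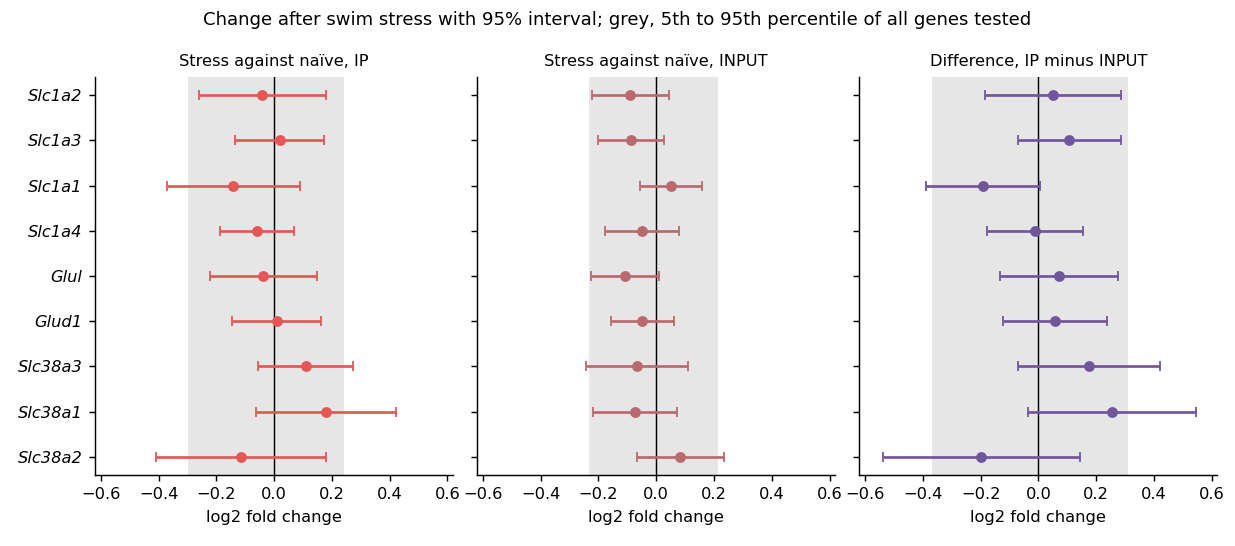
Log2 fold change of stress against naïve in IP (left) and INPUT (middle), and the difference between these changes (right), for each of the 9 genes with the 95% interval from limma on 4 libraries a group; grey bands span the 5th to 95th percentile of all genes tested. Every interval crosses 0 and every point lies inside the grey band.

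The difference between the stress effects in IP and INPUT was tested as an interaction of fraction and stress in 1 fit of the 16 libraries. It passed for 0 of the 9 genes, where 0.0225% of 13341 genes passed. At an unadjusted p under 0.05 by limma there were 0 of 9 as well, where 4.71% of all genes tested had one. The most positive difference was that of Slc38a1 at 0.25 (−0.04 to 0.55), and the most negative were those of Slc38a2 at −0.20 (−0.54 to 0.15) and Slc1a1 at −0.19 (−0.39 to 0.01). All adjusted p were 1.00 to 3 digits. The IP and INPUT libraries come from the same mice, and this fit and the ratios of IP over INPUT share libraries with the stress comparisons.

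The pathway was followed further through 32 other genes listed by known function, again with earlier results of these data known. In naïve mice 29 of them could be tested between fractions, and 8 were higher in IP and 19 lower, shares near the 23.7% and 64.0% of all genes tested. Those higher were Slc25a18 (log2 ratio 3.30), a mitochondrial glutamate carrier, the proline-to-glutamate enzymes Prodh and Aldh4a1, the alanine aminotransferases Gpt and Gpt2, pyruvate carboxylase (Pcx), and Slc7a11 and Slc3a2, the subunits of the cystine-glutamate exchanger. The vesicular glutamate carriers were all lower, and Slc17a7, which encodes the vesicular carrier VGLUT1 of cortical neurons, had the lowest log2 ratio of the list at −4.18. Slc1a5, the glutamine exchanger ASCT2, was near the filter, with 1.11 ± 0.447 CPM in the naïve IP libraries and 1.24 ± 0.428 CPM in those of naïve INPUT, and its ratio of −0.17 did not pass (adjusted p = 0.645). In stress mice 8 of 28 were higher and 18 lower, beside 23.6% and 62.5% of all genes, with ratios from 3.36 for Slc25a18 to −4.41 for Slc17a6, the gene of VGLUT2.

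After stress, 0 of the 26 other pathway genes tested in IP passed the threshold by limma, nor did any of the 31 tested in INPUT, and the interaction passed for 0 of 28. With 0.440%, 0.0442% and 0.0225% of all genes passing, counts of 0 in lists of this size are near the background. Their median log2 change was −0.05 in IP and 0.03 in INPUT. In IP the values ran from −0.38 for Slc17a6 to 0.20 for Gpt2. In INPUT they ran from −0.24 for Slc38a5 to 0.46 for Slc38a4, and the value nearest to a call was that of Gpt2 at 0.35 (SE 0.0686, adjusted p = 0.117 by limma). Slc17a6, Slc38a5 and Slc38a4 had low levels. Slc17a6 had 2.10 CPM in naïve and 1.59 CPM in stress IP. In naïve and stress INPUT, Slc38a5 had 2.02 and 1.68 CPM, and Slc38a4 0.990 and 1.36 CPM.

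Once the mean of each group was taken out, the genes could be compared by how they varied between libraries. Over the 16 libraries, 4 of the 36 pairs of members had a Pearson correlation above 0.5 and 3 below −0.5, with a median of 0.05. The highest were Slc1a4 with Slc38a3 at 0.81 and Slc1a3 with Glul at 0.72, and the lowest was Glud1 with Slc38a1 at −0.65. Slc1a2 and Slc38a3 stood at −0.55, and Slc1a2 and Slc1a4 at −0.51. These values are a description, since the genes share each library's total and Slc1a2 alone makes up a large share of it in IP. The same counts were not made for other sets of genes.

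Among 13341 genes, the one whose residual pattern was most like that of Slc1a2 was Qk, an RNA-binding protein gene, at 0.93, followed by Atp13a3 at 0.90. For Glud1 it was Herc3 at 0.93 and then Galns at 0.89, and for Slc38a2 Klhl4 and Bcl2l1, both at 0.91. Slc38a1 was most like Zfp148 at 0.89 and Stam2 at 0.87, and Slc1a4 most like Frmd8 at 0.89 and Nln at 0.86. For Slc1a1 the nearest were Dzip1l at 0.88 and Spast at 0.85, and for Slc38a3 5930430L01Rik and Rhobtb3, both at 0.87. Slc1a3 was most like Rars2 at 0.84 and Zfp759 at 0.81, and Glul most like Gm5595 at 0.84 and Gm16523 at 0.81. No other member was among these nearest genes. These are the highest of many correlations over 16 libraries, given as a description with no test.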

How the data were processed

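The authors aligned paired-end reads to mm10 with STAR, counted uniquely mapped fragments on RefSeq genes with HTSeq (versions not given in the sources used here) and deposited log2 CPM values, 1 file a library, with a floor of −6.40 for 0 reads. All values came out as whole reads within 0.01, so CPM was recovered exactly. Genes that averaged over 1 CPM across the compared libraries were tested with limma 3.58.1 (R 4.3.3) on log2(CPM + 0.1) with a variance trend and Benjamini-Hochberg adjustment at 0.05. Fold changes are on that scale. Single members were also tested by exact permutation (Python 3.11.15 with NumPy 2.4.6). FPKM divides CPM by the merged exon length in GENCODE vM21, matched for 22758 of 24058 symbols. Depth was 16392876 to 25814364 reads on genes, and 3 reads were at most 0.183 CPM. No 2 libraries were identical. The labels name libraries by number and do not pair them. IP and INPUT come from the same mice, and treating them as independent affects the error of the comparisons between fractions. The members and lists were chosen with earlier results of these data known. All 9 members are named. Of the other pathway genes, those with extreme ratios, others chosen by function (1 of them is not reported here) and, as an addition made after the values were seen, the remaining genes higher in IP are named. For likeness, the 2 genes of highest correlation are named. The tests were tested on simulated data. Other pseudocounts, filters, scalings, limma-voom, array weights and leaving out each library were tried. So were fits without the variance trend, with all 16 libraries in 1 model, and with the level of Xist as a covariate.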

Additional observations from a re-analysis of the deposited data

Results flagged for a closer look

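In 5 of the 36 groups of 4 libraries (9 genes in 4 groups), 1 library stood apart from the other 3 by more than Dixon's 95% critical value, where chance gives about 1.8 such groups. The 9 genes share the same libraries, so the 36 checks are not independent. For Slc1a3, stress IP library 15 was low at 7657 CPM, with the others at 8424 to 8573 CPM, and stress INPUT library 12 was high at 667 CPM, with the others at 615 to 622 CPM. Naïve INPUT library 14 was low for Slc1a4, at 67.0 CPM against 71.0 to 71.2 CPM, and for Slc38a3, at 59.6 CPM against 67.9 to 69.1 CPM. For Slc38a2, stress INPUT library 1 was low at 125 CPM, with the others at 148 to 152 CPM.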

How the results depend on the processing

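Under every alternative run, 0 members passed for stress in IP, in INPUT or for their difference. With a filter of a mean above 1 FPKM, Slc1a1, at 0.973 FPKM in naïve and 0.882 FPKM in stress IP, was not tested for stress in IP. Between fractions all 9 passed, except that Slc1a2 lost its call without the filter on low genes (log2 ratio 4.13 in naïve and 4.18 in stress mice, adjusted p 0.37 and 0.44 by limma), and the cause was not tested. Quantile normalization moved ratios by over 1.5 times, to 1.45 and 1.51 for Slc1a2 and 1.43 and 1.56 for Glul in naïve and stress mice. Rescaling by the median ratio took Slc38a2 to −1.17 in naïve and Slc38a1 to −1.05 in stress mice. No ratio of IP over INPUT changed direction. Leaving out each library moved the ratio of Slc1a2 between 4.11 and 4.15 in naïve mice and that of Slc1a1 between −3.98 and −3.91. The stress changes that crossed 0 were all small and uncalled. In IP, Glud1 was at −0.0018 when rescaled by the median ratio, −0.0381 with quantile normalization and −0.0049 with array weights. With array weights Glul was at 0.0072 and Slc38a2 at 0.0079. With quantile normalization Slc1a2, Slc1a3 and Glul were at 0. That value is fixed for Slc1a2 and Glul, which ranked 1 and 3 by CPM in every IP library. Slc1a3 ranked 9 or 10, each as often in naïve as in stress IP. With the same normalization Slc1a2 in INPUT was at 0.0549 and its difference between fractions at −0.0897. The difference for Slc1a4 with array weights was 0.0061. Leaving out each library gave −0.0315 to 0.0543 for Glud1, −0.204 to 0.0313 for Slc38a2, −0.0070 to 0.0558 for Slc1a3 and −0.0680 to 0.0152 for Glul in IP, −0.116 to 0.0074 for Slc38a3 in INPUT, and −0.0044 to 0.0765 for Slc1a2 and −0.0520 to 0.0322 for Slc1a4 in the difference. No paired analysis was possible because the labels number each library on its own and do not say which IP and INPUT libraries share a mouse. With 4 libraries a group, the spread between libraries sets the intervals; among the 9 members the fewest reads behind a value were those of Slc1a1 in IP, 148 to 218 a library.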
